A study of Quercus x morisii and Quercus suber and Quercus ilex with 16 samples.

Results

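The loci described here lay halfway between cork and rhytidome in both kinds of hybrid bark. They were chosen by their values in the same 16 libraries. A locus had a mean regularized log2 value (rlog) of at least 5, the 4 cork libraries did not overlap the 4 rhytidome libraries, and both hybrid means lay between 0.35 and 0.65 of the way from the cork mean to the rhytidome mean. Of 47292 loci, 17754 had a mean rlog of at least 5, and in 8396 of these the parents did not overlap. The window in both hybrid barks held 229 of them, and the 200 with the largest difference between the parents were taken. Means, differences and positions are therefore descriptions of selected loci, and no test was made on them.

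Outer bark was compared in 4 groups of 4 libraries. Cork came from 4 trees of cork oak (Quercus suber), and rhytidome from 4 trees of holm oak (Quercus ilex). The rhytidome-like bark came from 4 hybrid trees, of a kind that the study mostly assigns to the first generation, and the cork-like bark from 1 hybrid tree, taken for a backcross to cork oak and sampled on its north, south, east and west sides. All were adult trees of 1 natural mixed forest, none was treated, and the libraries other than those of the cork-like tree were from the south side of the trunk. Spread in cork-like bark is thus spread within 1 tree, whereas in the other barks it is spread between trees. Tree numbers below are those of the libraries.

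Outer bark is made by the phellogen, a layer of dividing cells that adds phellem, the dead suberized cells of cork, to its outer face. In cork oak the same phellogen keeps working for years and gives a thick, pure phellem. In holm oak new phellogens form again and again deeper in the phloem, so the rhytidome holds thin layers of phellem with dead phloem between them. Scraped outer bark is a mixture of cell types, so a lower value can stand for fewer cells of a type or for less RNA per cell, and these cannot be told apart. In a first-generation hybrid, a locus whose parental copies each kept their own output would lie near the mean of the parents on the scale of RNA amount. This does not hold for a backcross, which carries cork oak copies alone at part of its loci. The rlog scale is logarithmic, and its midpoint is the geometric mean, which lies below that.

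The labelled tissues were described with 12 marker loci. All are among the loci the study selected on these same samples, so their directions between the barks are no independent check. The 7 suberin loci that stand for phellem had a median group mean of 15.98 in cork and 12.73 in rhytidome, and of 15.02 in the cork-like and 10.35 in the rhytidome-like hybrids. The 4 loci of phellogen and cambium had medians of 10.42, 9.09, 10.43 and 7.63 in the same order. The phloem receptor kinase BAM3 (LOC112030870) went the other way, with means of 4.98, 11.46, 8.01 and 12.44. Rhytidome-like bark thus lay beyond rhytidome in all 3 lists of markers, and none of the 12 marker loci was among the halfway loci. Library medians over loci of mean rlog 5 or more ran from 8.99 to 9.16. Reads of all barks, also those of holm oak, were mapped to the cork oak genome, and the part of this in the differences between the parents was not tested.

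Being halfway in both hybrids was uncommon. The smallest difference between the parents among the 200 loci was 0.68 on the log2 scale, and 6614 loci with parents apart had a difference at least as large. The halfway loci were 3.02% of these. Cork-like bark was within the window at 1730 of the 6614 loci (26.2%), and rhytidome-like bark at 898 (13.6%). Of the loci halfway in cork-like bark 11.6% were halfway in rhytidome-like bark too, and of those halfway in rhytidome-like bark 22.3% were halfway in cork-like bark. The most frequent combination over the 6614 loci was a cork-like mean within the window and a rhytidome-like mean at or beyond that of rhytidome, with 925 loci (14.0%). Rhytidome-like bark was at or beyond rhytidome at 3182 loci (48.1%), and cork-like bark at 709 (10.7%). The median position over the 6614 loci, where 0 is the cork mean and 1 the rhytidome mean, was 0.404 in cork-like and 0.972 in rhytidome-like bark.

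**Figure D1:**
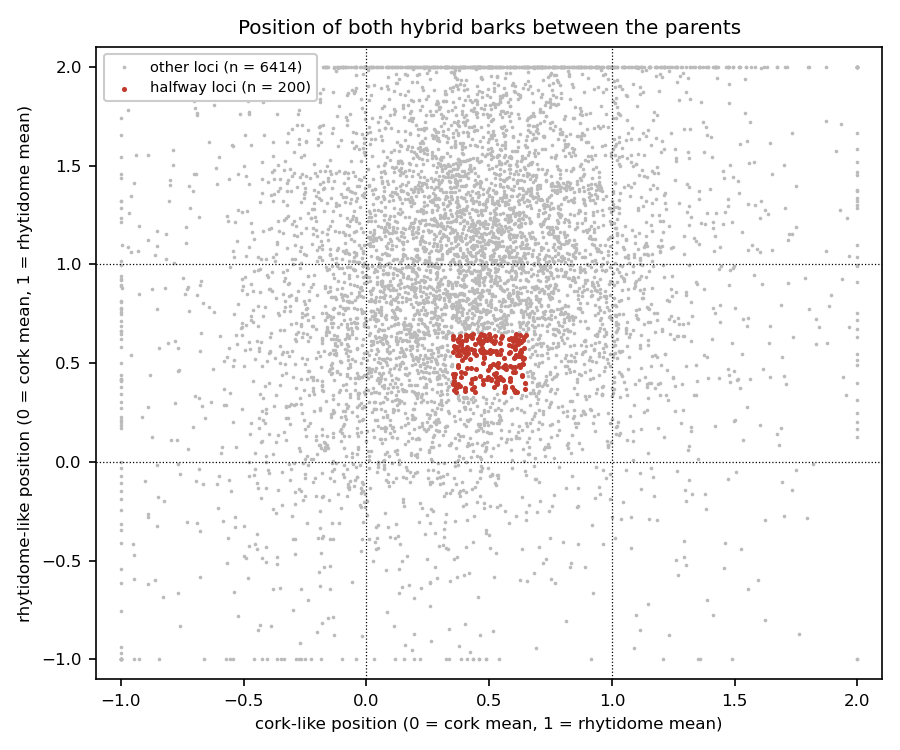
Position of the cork-like mean (x axis) and of the rhytidome-like mean (y axis) between the parents, where 0 is the cork mean and 1 the rhytidome mean, for the 6614 loci with parents apart and a difference of at least 0.68. Red points are the 200 halfway loci and fill the square fixed by their choice, grey points are the other 6414, and 659 loci past -1 or 2 are drawn at the edge. Most grey points lie above the square, where rhytidome-like bark is near or beyond rhytidome.

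Among the 200 loci, 105 (52.5%) were higher in cork than in rhytidome and 95 were lower. Over all 17754 loci of mean rlog 5 or more, cork lay apart from and above rhytidome in 25.6% and apart from and below it in 21.7%. Since non-overlap was part of the choice, nothing is read from the count. Of the 6614 loci, 3468 (52.4%) were higher in cork. The balance depended on the choice, and with a window of 0.30 to 0.70 only 71 of the 200 loci then taken were higher in cork. The absolute difference between the parents had a median of 1.60 over the halfway loci and reached 8.74, and its median over all loci with parents apart was 1.25. The median difference was 1.22 for the loci higher in cork and -2.05 for those lower in cork.

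The balance of directions moved with the size of the difference. Of the 40 halfway loci with a difference between 0.68 and 1, 28 were higher in cork, and of the 90 with a difference from 1 to 2, 56 were. Among the 44 loci with a difference from 2 to 4 the count was 17, and among the 26 with a difference of at least 4 it was 4. The largest differences were thus mostly of loci lower in cork. The other loci with parents apart tended the same way, since 174 of the 564 loci with a difference of at least 4 were higher in cork (30.9%, against 15.4% of the halfway loci). The halfway loci were 2.66% of loci in the lowest of the 4 classes, 3.26% and 2.46% in the middle ones and 4.61% in the highest. Cork had a mean below 5 at 34 of the 95 loci lower in cork, and rhytidome at 9 of the 105 loci higher in cork. Over the 6614 loci, cork had such a mean at 789 of those lower in cork. Rhytidome had it at 303 of the 3468 higher in cork, so low values in 1 parent were also found outside the halfway loci. The share with a low cork mean was larger among the halfway loci lower in cork than among all loci lower in cork. The share with a low rhytidome mean was about the same in both sets higher in cork. The cause of this was not tested. The rlog draws such low values toward the mean of the locus.

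The largest differences belonged to loci with low values in cork. LOC112039852 had the largest of all 200. Its rlog in cork was 2.88 in tree 87, 2.76 in tree 89, 2.17 in tree 90 and 2.11 in tree 91 (mean 2.48 ± 0.397, SD, n = 4). In rhytidome it was 9.54 in tree 33, 12.34 in tree 67, 11.80 in tree 68 and 11.21 in tree 94 (mean 11.22 ± 1.21, SD, n = 4). The lowest rhytidome tree was far above the highest cork tree, and both hybrid barks filled the gap. Cork-like bark had 5.26 on the north, 7.39 on the south, 8.57 on the east and 6.91 on the west side (mean 7.03 ± 1.37, SD). Rhytidome-like bark had 5.34 in tree 21, 7.42 in tree 14, 6.23 in tree 18 and 6.46 in tree 20 (mean 6.37 ± 0.855, SD). All 8 hybrid libraries lay between the parents, and both hybrid barks covered much the same values.

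LOC111997266 had nearly the same pattern at a higher level. Cork had 5.18, 3.34, 3.32 and 3.07 in trees 87, 89, 90 and 91, and rhytidome 10.49, 13.66, 13.56 and 12.05 in trees 33, 67, 68 and 94, which gave a difference of -8.71. Cork-like bark had 6.07 on the north, 8.40 on the south, 9.47 on the east and 7.45 on the west side. Rhytidome-like bark had 6.08, 8.30, 6.45 and 7.78 in trees 21, 14, 18 and 20. Again no hybrid library reached either parent. Cork tree 87 stood above the other cork trees.

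LOC112016934 was the third of this kind, with a difference of -8.34. Its values were 4.16, 1.90, 3.19 and 3.28 in cork trees 87, 89, 90 and 91 and 9.46, 12.52, 12.56 and 11.37 in rhytidome trees 33, 67, 68 and 94. In cork-like bark they were 5.22 on the north, 7.53 on the south, 8.56 on the east and 6.71 on the west side. In rhytidome-like bark they were 5.80, 7.35, 6.73 and 7.18 in trees 21, 14, 18 and 20.

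These 3 loci ranked the libraries alike within both hybrid barks. North was lowest and then came west, south and east in the cork-like tree, and the rhytidome-like trees rose in the order 21, 18, 20 and 14. LOC112039606 and LOC112011981, the fifth and the sixth in size among the loci lower in cork, ranked all 8 libraries in the same way, which made 5 of the 200 loci (2.50%) against 46 of 17754 (0.259%). The pattern was noticed in the values and then counted. Among the 179 loci lower in cork with a difference of at least 5 it was found in 8 (4.47%), of which these were 5. The 5 were also among the 10 halfway loci lower in cork with the largest differences, all of at least 5. The pattern was first seen in these loci, so nothing is read from the shares. The order north, west, south, east alone was found in 6 of the 7 halfway loci with the largest differences and in 18 of all 200 (9.0%, against 7.35% of the 17754 loci). Over all loci lower in cork by at least 5 it was found in 59 (33.0%). Of the 12 marker loci only the phloem locus BAM3 had this order, with 6.02 on the north, 8.01 on the west, 8.57 on the south and 9.45 on the east side. BAM3 was also the only marker lower in cork, with a difference of -6.48. It thus belongs to the loci lower in cork by at least 5, of which 33.0% had this order, so nothing about phloem is read from it. The part of phloem in the scraped samples was not tested.

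**Figure D2:**
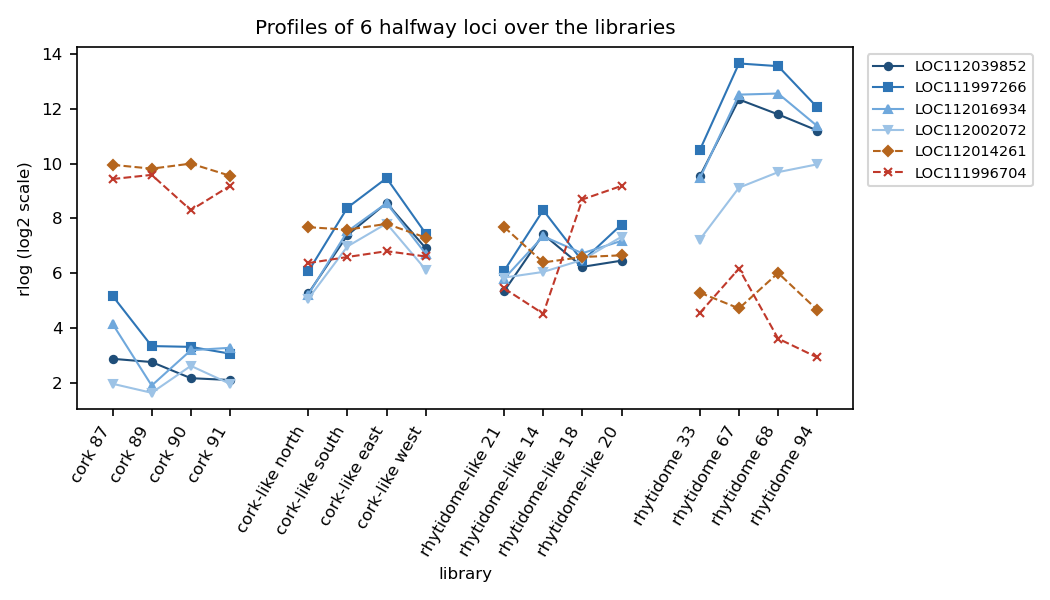
Library values (rlog, y axis) of 6 halfway loci in the 16 libraries (x axis), joined within a bark. The 4 loci in blue, lower in cork, rise from the north to the east side of the cork-like tree, LOC112014261 is nearly level within it, and LOC111996704 separates rhytidome-like trees 21 and 14 from trees 18 and 20.

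Hybrid trees differed from each other more at LOC112039606. Cork had 2.60, 3.97, 3.83 and 4.14 in trees 87, 89, 90 and 91, and rhytidome 10.90, 10.08, 11.54 and 10.85 in trees 33, 67, 68 and 94. Cork-like bark had 6.26, 8.03, 8.67 and 7.31 on its north, south, east and west sides. Rhytidome-like bark had 6.19 in tree 21, 10.95 in tree 14, 6.60 in tree 18 and 8.19 in tree 20, so that tree 14 was within the range of rhytidome while the others were not.

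At LOC112011981 the cork trees themselves differed. Cork tree 90 had 8.49, whereas trees 87, 89 and 91 had 3.86, 4.18 and 3.97. Rhytidome ran only from 12.01 to 12.60. Cork-like bark had 8.63, 9.74, 10.40 and 9.38 on its north, south, east and west sides, and rhytidome-like bark had 7.14, 10.36, 7.87 and 9.09 in trees 21, 14, 18 and 20. Rhytidome-like trees 21 and 18 were thus below cork tree 90 but above the other cork trees.

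LOC111987171 was the locus at which both hybrid barks differed most. Cork had 2.60, 2.93, 4.71 and 5.70 in trees 87, 89, 90 and 91, and rhytidome 10.72, 9.57, 11.65 and 12.88 in trees 33, 67, 68 and 94. Cork-like bark had 5.20 on the north, 7.42 on the south, 6.95 on the east and 6.52 on the west side, and rhytidome-like bark 8.20, 8.02, 8.31 and 9.82 in trees 21, 14, 18 and 20. The cork-like sides were all below the rhytidome-like trees, with a difference of the means of -2.06, and both means were still inside the window, at 0.351 and 0.637.

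Of the other loci lower in cork, LOC112002072 had a low level in every cork tree. The values were 1.97, 1.64, 2.62 and 1.97 in trees 87, 89, 90 and 91, and rhytidome had 7.23, 9.12, 9.69 and 9.98 in trees 33, 67, 68 and 94. Cork-like bark had 5.07, 6.98, 7.82 and 6.13 on its north, south, east and west sides, and rhytidome-like bark 5.84, 6.05, 6.49 and 7.33 in trees 21, 14, 18 and 20. The east side and tree 20 were in the range of rhytidome, which tree 33 set low.

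LOC112035814 and LOC111996754 each had 1 rhytidome-like tree at the level of cork. At LOC112035814 tree 20 had 2.84, within the cork values of 2.21 to 3.30, while trees 21, 14 and 18 had 5.51, 5.86 and 6.31. At LOC111996754 the tree was 18, with 3.74 against cork values of 3.23 to 3.78, and trees 21, 14 and 20 had 6.22, 6.81 and 7.43. The cork-like sides ran from 5.55 to 6.77 at LOC112035814 and from 5.16 to 6.18 at LOC111996754, where rhytidome ran from 7.68 to 10.30. The tree at the level of cork was not the same at both loci. At LOC112017689 cork ran from 2.54 to 5.51 and rhytidome had 7.18 in tree 33 and 10.16 to 10.62 in the others. Its 4 cork-like values of 7.37 to 7.69 all exceeded rhytidome tree 33, though their mean lay at 0.630. The rhytidome-like trees had 6.12 to 7.90.

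**Figure D3:**
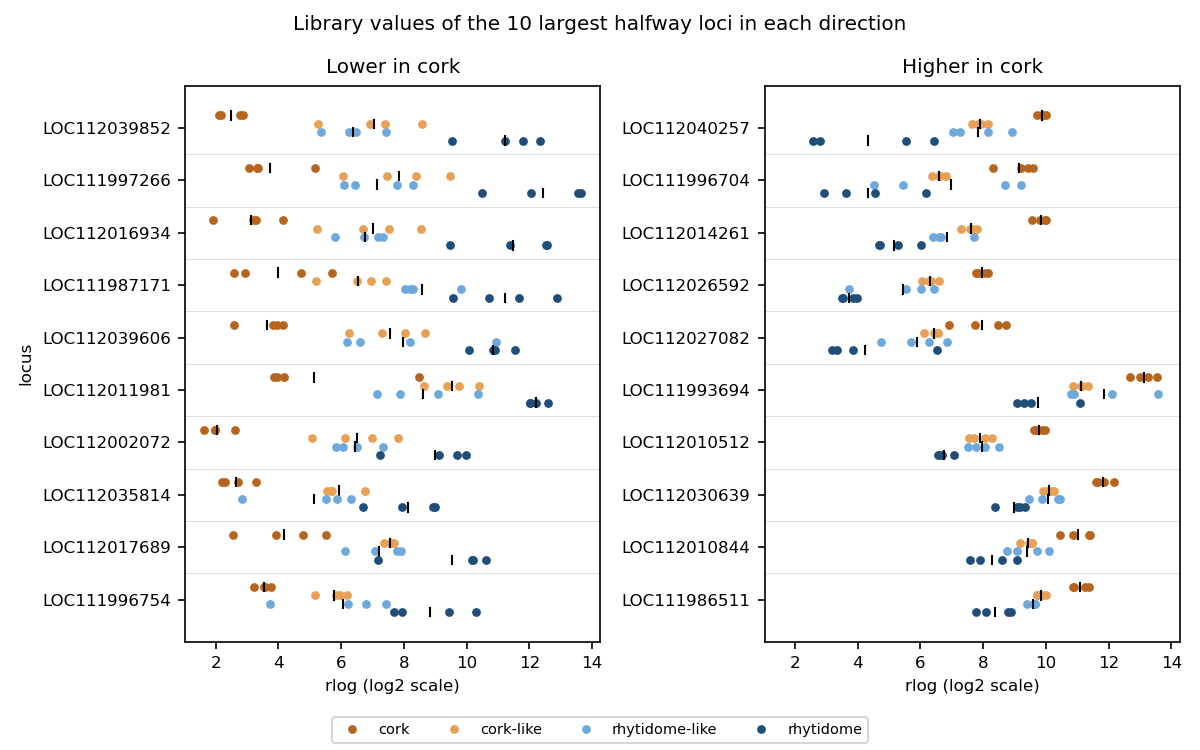
Library values (rlog, x axis) of the 10 loci lower in cork (left) and the 10 higher in cork (right) with the largest differences between the parents. Each point is 1 library, 4 for each bark, and the short bars are group means. Cork and rhytidome do not overlap in any row, as the choice required, and the rhytidome-like points are often the most spread of the hybrid ones.

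Loci higher in cork differed less between the parents. The largest difference was 5.53 at LOC112040257. Cork had 9.999, 9.86, 9.71 and 9.90 in trees 87, 89, 90 and 91. Rhytidome had 5.53 and 6.44 in trees 33 and 67 but only 2.58 and 2.79 in trees 68 and 94. The cork-like sides had 8.15, 7.93, 7.83 and 7.64 from north through south and east to west, and the rhytidome-like trees 21, 14, 18 and 20 had 7.27, 8.15, 7.04 and 8.93. All 8 hybrid libraries were above every rhytidome tree and below every cork tree. Both means, at positions 0.357 and 0.365, were near the cork edge of the window.

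LOC112014261 differed by 4.66. Cork had 9.96, 9.82, 10.002 and 9.56 in trees 87, 89, 90 and 91, and rhytidome 5.29, 4.72, 6.01 and 4.66 in trees 33, 67, 68 and 94. Cork-like bark had 7.68, 7.59, 7.80 and 7.30 on its north, south, east and west sides, and rhytidome-like bark 7.69, 6.40, 6.59 and 6.66 in trees 21, 14, 18 and 20. Every hybrid library lay between the parents, though rhytidome-like tree 14, at 6.40, was close above rhytidome tree 68, at 6.01.

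LOC112010512, LOC112030639 and LOC111986511 also had all 8 hybrid libraries between the parents. At LOC112010512 cork ran from 9.63 to 9.96, cork-like bark from 7.55 to 8.29, rhytidome-like bark from 7.51 to 8.50 and rhytidome from 6.55 to 7.08. At LOC112030639 the ranges were 11.59 to 12.16, 9.92 to 10.27, 9.47 to 10.46 and 8.37 to 9.34 in the same order. Both hybrid barks covered the same values at each of these loci. At LOC111986511 cork ran from 10.87 to 11.36 and rhytidome from 7.76 to 8.88, and the hybrid barks, at 9.72 to 9.99 and 9.39 to 9.64, were narrow enough not to overlap.

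The other 5 of the 10 loci had at least 1 hybrid library at the level of a parent. LOC111993694 was the most expressed of them, with 12.68 to 13.53 in cork and 9.08 to 11.09 in rhytidome. Its rhytidome-like values were 10.79, 12.09, 10.90 and 13.56 in trees 21, 14, 18 and 20, so that tree 20 was above every cork tree and trees 21 and 18 were below rhytidome tree 68. At LOC112026592 tree 20 was the low one, with 3.71 inside the rhytidome range of 3.49 to 3.98, against 6.44, 6.01 and 5.55 in trees 21, 14 and 18. The same tree thus went to opposite parents at these loci. At LOC112027082 the ranges were 6.90 to 8.73 in cork, 6.11 to 6.57 in cork-like, 4.75 to 6.84 in rhytidome-like bark and 3.17 to 6.53 in rhytidome, and only rhytidome tree 68 reached the hybrids. At LOC112010844 they were 10.43 to 11.41, 9.18 to 9.55, 8.74 to 10.08 and 7.59 to 9.07.

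LOC111996704 showed how a mean can be halfway when no tree is. Cork had 9.44, 9.59, 8.30 and 9.19 in trees 87, 89, 90 and 91, and rhytidome 4.55, 6.17, 3.62 and 2.93 in trees 33, 67, 68 and 94. Of the rhytidome-like trees, 21 and 14 had 5.45 and 4.52, within the range of rhytidome, and 18 and 20 had 8.69 and 9.19, within the range of cork (SD 2.32, n = 4). The cork-like sides had 6.37, 6.59, 6.81 and 6.61, all between the parents. The rhytidome-like mean of 6.96, at position 0.450, matched none of its own trees.

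Such splits were counted over all 200 loci. A library was counted as between the parents when it fell in the gap between the nearest cork and rhytidome libraries, and as at a parent otherwise. The rule for choosing the loci used the means of the hybrid barks and not their single libraries. All 4 rhytidome-like trees were between the parents at 49 loci (24.5%), against 3.91% of the 8396 loci with parents apart. All 4 cork-like sides were between at 105 loci (52.5%), against 18.7%. A mean inside the window makes this more likely, so the shares over loci within the window in that bark are closer. They were 21.5% for the rhytidome-like and 56.6% for the cork-like bark.

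The rhytidome-like trees were on different sides at part of the loci. At 68 of the 200 loci at least 1 of these trees was at cork and at least 1 at rhytidome, and at 5 loci 2 were at each. The cork-like sides did this at 15 loci and 1 locus. At 27 loci rhytidome-like trees were at cork and none at rhytidome, and at 56 at rhytidome and none at cork. The number of rhytidome-like trees between the parents was 0 at 19 loci, 1 at 33, 2 at 41 and 3 at 58.

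Beside LOC111996704, the loci with 2 rhytidome-like trees at each parent were LOC111987347, LOC112009994, LOC111995978 and LOC111991641. At LOC111987347, lower in cork by 1.86, trees 21 and 14 had 4.44 and 4.45 and trees 18 and 20 had 6.58 and 6.02. At LOC112009994, higher in cork by 1.39, trees 21 and 18 had 5.58 and 5.02 and trees 14 and 20 had 6.81 and 7.24. At LOC111995978 trees 21 and 20 had 7.91 and 7.14 and trees 14 and 18 had 8.68 and 8.15, and at LOC111991641 trees 21 and 20 had 10.72 and 10.42 and trees 14 and 18 had 9.81 and 9.55. The division of trees 21 and 14 from 18 and 20 was thus found at 2 of the 5 loci, that of 21 and 20 from 14 and 18 at 2, and that of 21 and 18 from 14 and 20 at 1.

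In 45 loci (22.5%) all 8 hybrid libraries lay between the parents. This was not counted for both barks together over other loci, so nothing is read from the share. Of the 45 loci, 31 were higher and 14 lower in cork. Their median absolute difference between the parents was 1.67, and that of the other halfway loci 1.55, and 16 of the 70 halfway loci with a difference of at least 2 were among them. Beside those described above, LOC111993029 was lower in cork by 4.84 with rhytidome-like values of 5.88, 5.73, 5.41 and 5.85 in trees 21, 14, 18 and 20, a narrow set for so large a difference. LOC112040037 was lower in cork by 4.63 and had 10.81, 9.87, 9.75 and 9.71 in the same trees.

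Trees of rhytidome-like bark varied more than sides of the cork-like tree. The median SD over the 200 loci was 0.422 in rhytidome-like and 0.179 in cork-like bark, and 0.278 in cork and 0.389 in rhytidome. Over the 6614 loci the medians were 0.439, 0.191, 0.279 and 0.377, close to those of the halfway loci. Among loci within the window in rhytidome-like bark it was 0.516. The SD was larger in rhytidome-like than in cork-like bark at 171 of the 200 loci (85.5%) and at 84.3% of the 6614. Since 1 bark was sampled within a tree and the other between trees, the kind of bark and the kind of sampling cannot be told apart here.

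**Figure D4:**
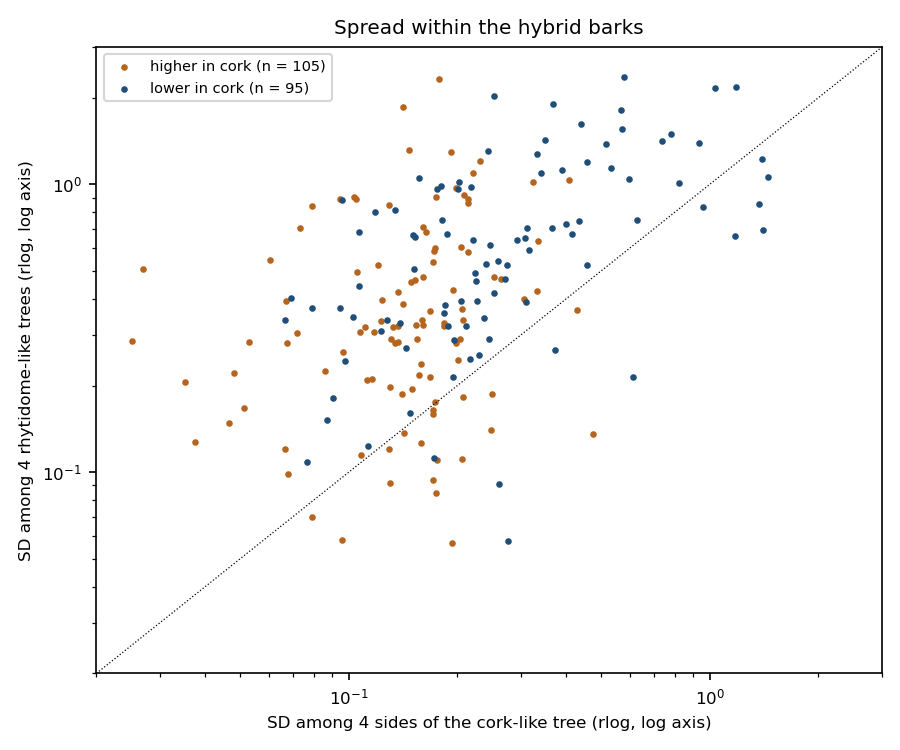
Standard deviation (rlog, both axes logarithmic) among the 4 sides of the cork-like tree (x axis) and among the 4 rhytidome-like trees (y axis) for the 200 halfway loci, with equal values on the dotted line. The 171 points above the line varied more between rhytidome-like trees, and the 7 points at the right with a cork-like SD of at least 1 are all lower in cork.

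The spread ran from 0.0569 to 2.35 in rhytidome-like bark. The narrowest was LOC111995787, with 8.35, 8.44, 8.48 and 8.46 in trees 21, 14, 18 and 20, between cork values of 8.93 to 9.57 and rhytidome values of 6.79 to 8.0. LOC112008576 had 8.07, 7.997, 8.05 and 7.94 in the same trees, all above cork (7.60 to 7.79). Rhytidome tree 94, at 7.999, was here level with these trees and the other rhytidome trees, at 8.73 to 8.80, were above them. The widest was LOC111987242, where tree 14 had 1.64 and trees 21, 18 and 20 had 6.21, 6.37 and 6.43. Cork ran there from 2.05 to 5.02 and rhytidome from 6.63 to 7.49, so tree 14 was below every cork tree.

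The cork-like tree had an SD of at least 1 at 7 loci. These were LOC111997266, LOC112016934, LOC112039852, LOC112002072 and LOC112039606, described above, with LOC112019802 and LOC112001851. North was the lowest side at all 7 loci and east the highest at 6 of them. At LOC112001851 the values were 5.44 on the north, 7.06 on the south, 8.27 on the east and 7.40 on the west side. LOC112019802 was the exception, with 4.85, 6.76 and 4.89 on the north, south and east sides and 7.64 on the west side.

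Single libraries did not all sit at the middle. Over the 200 loci the median position was 0.456 on the north, 0.50 on the south, 0.536 on the east and 0.511 on the west side of the cork-like tree. It was 0.552 in rhytidome-like tree 21, 0.520 in tree 14, 0.563 in tree 18 and 0.433 in tree 20. North was the side nearest cork at 91 loci, and tree 20 was the rhytidome-like tree nearest cork at 87.

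Over the 200 loci, rhytidome-like tree 20 had the median position nearest cork among the hybrid libraries, 0.433. Its median position was 0.354 at loci higher in cork and 0.485 at loci lower in cork, where the north side was nearer cork, at 0.431. The value of tree 20 lay beyond the cork mean at 21 loci and beyond the rhytidome mean at 11. With the loci chosen again without this tree, 135 of the 200 remained, and all 3 other rhytidome-like trees lay between the parents at 75 of the 200 loci then chosen, against 49 with all 4 trees.

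**Figure D5:**
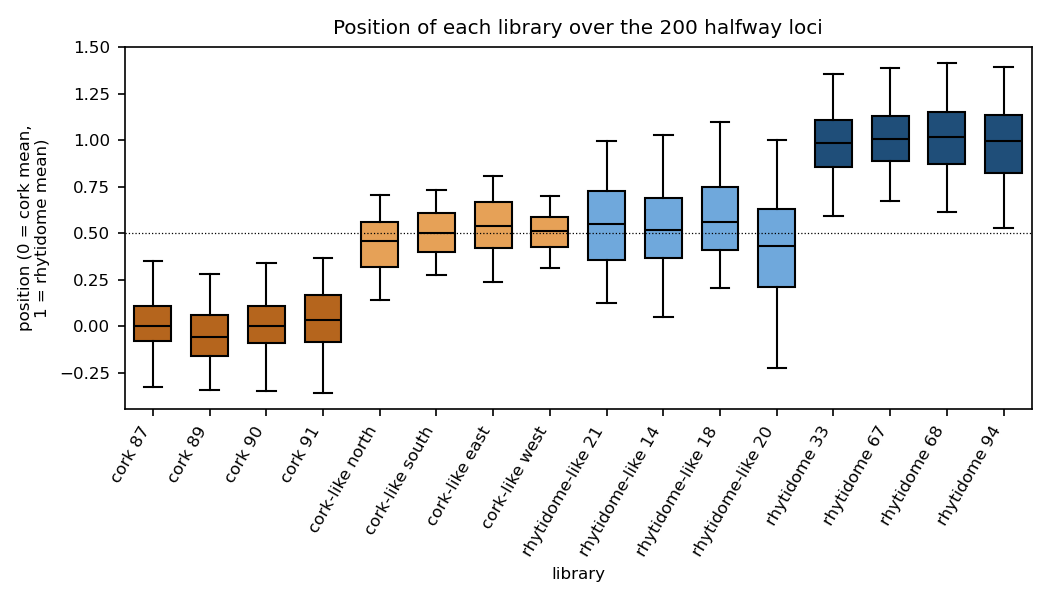
Position of each of the 16 libraries (x axis) over the 200 halfway loci, with 0 at the cork mean and 1 at the rhytidome mean (y axis). Boxes span the quartiles with the median as a line, and whiskers run from the 5th to the 95th percentile. Boxes are wider in rhytidome-like than in cork-like libraries, and tree 20 has the lowest hybrid median, 0.433.

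Both hybrid barks were close to each other at most of these loci, which the shared window makes likely. The median absolute difference between their means was 0.156, against 1.08 over the 6614 loci. They did not overlap at 6 loci (3.00%), against 53.7% of the 17754 loci and 63.0% of the 6614. The 6 loci were LOC111987171, LOC111986511, LOC112034083, LOC112012393, LOC111983080 and LOC112001264. Cork-like bark was nearer cork at 4 of them. At LOC112012393, higher in cork by 1.85, the sides had 9.55 to 9.86 and the rhytidome-like trees 9.32 to 9.53. LOC111983080 went the other way, with 9.32 to 9.54 in cork-like and 9.83 to 9.96 in rhytidome-like bark at a difference between the parents of 1.75, so here the rhytidome-like trees were the nearer to cork. Over the 200 loci the cork-like mean was the nearer to cork at 110 (55.0%), and over the 6614 loci at 78.6%.

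On the scale of RNA amount most of these loci lay below the mean of the parents. For the cork-like tree, a backcross, this mean is only a reference point. The rlog was raised as a power of 2, averaged over the parents and turned back into log2. The cork-like mean lay below this arithmetic midparent by a median of 0.21 on the log2 scale (-0.21), and the rhytidome-like mean by 0.22 (-0.22). The construction of the log scale alone puts a locus at the middle of the window below the arithmetic mean, and the more so the larger the difference. For loci with a difference of at least 4 the medians were -1.52 and -1.44, and under 1 they were -0.09 and -0.06. The distance was greatest at LOC111987171 in cork-like bark, with -3.69, and at LOC111997266 in rhytidome-like bark, with -4.29. It exceeded 1 in cork-like bark at 26 loci, in rhytidome-like bark at 28 and in both at 20. Within 0.5 of the arithmetic midparent were 144 and 146 loci, and 19 and 23 were above it. When the window was applied to RNA amount in place of rlog, 210 loci were halfway in both barks, and 45 of the 200 were among them.

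Names were at hand for few loci, since only the first 1218 rows of the table of names of the study were used with its shorter selections. Of the 200, 7 (3.5%) carry a match to Arabidopsis in the names used here, as do 210 of the 6614 loci (3.18%). LOC111983322 matches AT1G06080, delta 9 desaturase 1, an enzyme that puts a double bond into fatty acyl chains. Cork had 5.60, 4.34, 4.58 and 4.73 in trees 87, 89, 90 and 91, and rhytidome 9.0, 6.52, 7.41 and 10.93 in trees 33, 67, 68 and 94. Cork-like bark had 6.41, 7.17, 6.45 and 8.41 on its north, south, east and west sides, and rhytidome-like bark 5.27, 6.52, 8.64 and 6.92 in trees 21, 14, 18 and 20. Rhytidome-like tree 21 was at the level of cork and trees 14, 18 and 20 were in the range of rhytidome, and the difference between the parents was -3.65. It was the only halfway locus of 13 loci for suberin, wax and fatty acyl metabolism that were named and had parents apart. Over all 8396 loci with parents apart 2.73% were halfway in both barks, so nothing is read from 1 of 13.

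LOC112027824 matches AT1G02010, secretory 1A, of the Sec1 family that acts in the fusion of vesicles with membranes. It was higher in cork by 2.50, with 7.48 to 8.16 in cork, 6.54 to 6.76 in cork-like, 5.14 to 7.11 in rhytidome-like bark and 3.95 to 6.09 in rhytidome. LOC112008491 matches AT1G02860, a protein with the SPX domain that binds inositol phosphates in the control of phosphate, and was higher in cork by 2.29. It had 6.83 to 7.88 in cork, 5.85 to 6.13 in cork-like, 5.42 to 7.35 in rhytidome-like bark and 4.38 to 5.90 in rhytidome. At both loci the cork-like sides were close to each other and the rhytidome-like trees reached the range of a parent.

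LOC111984016 matches AT1G06070, a transcription factor of the basic leucine zipper (bZIP) family, whose members bind DNA as dimers. It was higher in cork by 1.54 and was the only halfway locus of 12 named transcription factors with parents apart. That count is too small to set against the 2.73% over all 8396 such loci. Cork had 7.71 to 8.24, cork-like bark 6.90 to 7.14 and rhytidome 5.52 to 7.01. Rhytidome-like trees 21, 14, 18 and 20 had 7.21, 7.74, 7.57 and 5.78, so that tree 20 was within the range of rhytidome and tree 14 within that of cork.

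A pair of the named loci match pentatricopeptide repeat proteins, which bind RNA in mitochondria and chloroplasts, and they went in opposite directions. LOC111983169 (AT1G09900) was higher in cork by 1.49, with 9.51 to 10.24 in cork, 8.52 to 8.91 in cork-like, 8.61 to 9.40 in rhytidome-like bark and 7.83 to 8.51 in rhytidome. It was the only named locus with all 8 hybrid libraries between the parents. LOC111983974 (AT3G18020) was lower in cork by 1.48, with 4.66 to 6.06 in cork, 5.83 to 6.16 in cork-like, 6.04 to 6.78 in rhytidome-like bark and 6.66 to 7.07 in rhytidome. LOC111983208 (AT1G24265), of unknown function, was higher in cork by 0.92.

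None of the 82 loci that the study selected for development, cell wall, suberin and meristems was halfway in both hybrids. Of these, 56 had parents apart and passed the limit on mean rlog, and over all 8396 such loci the share halfway in both was only 2.73%, so a count of 0 is close to it. Cork-like bark was within the window at 15 of the 56 (26.8%, against 24.02% of the 8396) and nearer cork than the window at 35 (62.5%, against 44.0%). Rhytidome-like bark was within it at 3 (5.36%, against 12.8%) and at or beyond rhytidome at 48 (85.7%, against 49.0%). The study chose these loci on the same samples, so the shares are descriptions.

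At the limit of the choice the loci were alike on either side. The last inside were LOC112034595, with a difference of 0.676, and LOC111989709, with 0.675. The first outside were LOC112019779, with 0.674, and LOC112015039, with -0.662. At LOC112034595 cork ran from 9.63 to 9.70, cork-like bark from 9.13 to 9.55, rhytidome-like bark from 9.07 to 9.46 and rhytidome from 8.94 to 9.15. At this locus 1 library of each hybrid bark reached the rhytidome range. This did not hold at every small difference, since at LOC111993236, with -0.73, all hybrid libraries lay between the parents.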

How the data were processed

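RNA of scraped outer bark was sequenced as 16 libraries. The authors trimmed the reads with Trimmomatic 0.40, removing the first 12 bases, aligned them with GSNAP to the assembly CorkOak1.0 of cork oak, retained unique and concordant pairs, and used Cufflinks 2.2.1, HTSeq 0.11.1 and DESeq2 1.38.3. No source used here gives the strand setting. The deposited table holds log2 values, the rlog of the authors, scaled for depth. Counts were not used here, so the depth behind a value is not known from the table.

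Group means, SD (n = 4) and positions were computed in Python 3.11.15 with numpy 2.4.6 and pandas 2.3.3, and figures drawn with matplotlib 3.10.9. The selection was run on simulated data, to check that the rule was coded as meant. The simulated loci had larger differences than the median halfway locus and less spread than rhytidome-like bark. The run therefore does not tell how the rule does at small differences. The members, lists and tests were chosen with earlier results of these data known, and no p-value is given, since the choice used all libraries. Named are the 10 largest differences in each direction, members among the loci the study selected (none), the pair on either side of the limit of 200, and the pairs with the smallest and the largest SD in rhytidome-like bark. Up to 2 loci of each of 16 function lists with at least 2 members were to be named, but 2 lists had 1 member and the others none. The 7 loci with an Arabidopsis match, the loci whose hybrid barks do not overlap and those split between the parents were added after their values were seen. Names are those in the tables of the study, of which the first 1218 rows were used, so function lists were only counted. Alternatives changed the window, the filter, the scaling, the scale, the average and the number of loci, and left out each library.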

Additional observations from a re-analysis of the deposited data

Results flagged for a closer look

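Of 136 groups of 4 libraries tested at the named loci, 12 held a library far from the other 3 by Dixon's criterion. Chance gives such a library in about 1 in 20 groups of unselected values. These loci were named for their differences and partly for their spread, so the count is not compared with that rate. In cork the outlying libraries were tree 87 at LOC111997266 (5.18, the others 3.07 to 3.34), tree 90 at LOC112011981 (8.49, the others 3.86 to 4.18) and tree 91 at LOC112034595 (9.63, the others 9.69 to 9.70). In rhytidome they were tree 33 at LOC112017689 (7.18, the others 10.16 to 10.62) and tree 94 at LOC112008576 (7.999, the others 8.73 to 8.80), at LOC111987242 (6.63, the others 7.39 to 7.49) and at LOC111983208 (10.48, the others 9.83 to 9.94). In cork-like bark they were the east side at LOC112035814 (6.77, the others 5.55 to 5.70) and at LOC111983169 (8.52, the others 8.86 to 8.91). In rhytidome-like bark they were tree 21 at LOC111986511 (9.39, the others 9.62 to 9.64), tree 20 at LOC111987171 (9.82, the others 8.02 to 8.31) and tree 14 at LOC111987242 (1.64, the others 6.21 to 6.43).

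At LOC111987171 every cork-like library lay below the midpoint of the parental rlog means and every rhytidome-like library above it. The means were -1.07 and 0.99 from the midpoint, a difference of -2.06, which was not tested, since the locus was chosen on these means.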

How the results depend on the processing

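With the window applied on the linear scale, 45 of the 200 loci remained. The median distances from the arithmetic midparent changed sign, to 0.029 in cork-like and 0.0077 in rhytidome-like bark. That window is centred on the arithmetic midparent, so such small distances follow from the choice. The balance of 105 of 200 loci higher in cork was not stable, and turned to a majority lower in cork in several settings. With a window of 0.40 to 0.60 there were 86 loci. Of these, 71 were among the 200, 46 were higher in cork, 20 had all rhytidome-like and 45 all cork-like libraries between the parents, 43 had cork-like bark nearer cork and 2 had hybrid barks apart. A window of 0.30 to 0.70 gave 433 loci, of which 71 of the 200 taken were higher in cork, a median rhytidome-like SD of 0.646, 17 loci with hybrid barks apart and a cork-like distance of -0.50. With the limit on mean rlog at 3, 58 of 200 loci were higher in cork, the median SDs were 0.779 and 0.308, and the cork-like distance was -0.54. Median centring left 2 loci with hybrid barks apart. Quantile normalization kept 105 of the 200 loci and group medians 123. With the 100 largest differences, 36 were higher in cork, 25 and 59 had all rhytidome-like and all cork-like libraries between, 56 had cork-like bark nearer cork, the rhytidome-like SD was 0.687 and the cork-like distance -0.61. The cause of these changes was not tested, with exceptions. These were the distances on the linear scale and the smaller number of loci under the narrow window and the 100 largest. Keeping only the 160 loci with a difference of at least 1, an alternative chosen after seeing the data, left 77 higher in cork, 37 with all rhytidome-like libraries between and a median rhytidome-like SD of 0.527.

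Leaving out each library in turn gave 212 to 260 loci, 98 to 111 higher in cork and 135 to 187 of the 200 kept. All rhytidome-like libraries lay between the parents at 41 to 75 and all cork-like libraries at 98 to 123. The median SDs were 0.319 to 0.503 and 0.156 to 0.193, cork-like bark was nearer cork at 101 to 122, and hybrid barks were apart at 4 to 10, the last without the north side. The distances were -0.28 to -0.19 and -0.26 to -0.18, and the median absolute difference of the named loci 3.33 to 3.91. Without rhytidome-like tree 20, 75 loci had all remaining rhytidome-like libraries between, which fewer libraries meet more easily. Of 608 values of the cork minus rhytidome difference at single named loci, 605 moved by less than 1 SD and none reversed. Leaving out a library or taking group medians could not reverse it, since the parents do not overlap at these loci. Leaving out a hybrid library does not change it at all, so nothing is read from these counts. No paired analysis was possible because the numbers of trees and sides are not shared between barks and no test was made. The depth of the libraries is not known from the table, so precision is limited by 4 libraries a bark.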
